A study of Mus musculus with 12 samples.

Results

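Blood and lymph vessels run through every layer of the colon wall, and the cells that line them express a small set of genes that few other cells share. The genes described here are 10 such endothelial genes, taken by symbol from the 38924 genes listed in the count tables: *Pecam1*, *Cdh5*, *Kdr*, *Vwf*, *Tek*, *Plvap*, *Lyve1*, *Prox1*, *Flt4* and *Pdpn*. All 10 were found, all 10 passed the filter on low counts, and their counts ranged from 483 to 10470 per gene and mouse. They were chosen as endothelial genes by name and not by their values, though with earlier results of these data known. They were measured by paired-end RNA-Seq in proximal colon from 6 female C57BL/6J APC Min/+ mice and 6 female C57BL/6J WT mice, all 6 weeks old. APC Min/+ mice carry a germ-line truncating mutation in 1 copy of *Apc*, in every cell, and WT mice carry none. The genotypes were housed in separate cages, so genotype and cage cannot be told apart.

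Endothelial cells take their growth cues from the VEGF family. VEGF-A acts through the receptor encoded by *Kdr* (VEGFR2) in blood vessels, and VEGF-C and VEGF-D act through the receptor encoded by *Flt4* (VEGFR3), mainly in lymph vessels. *Tek* encodes Tie2, the angiopoietin receptor, which keeps vessels quiescent. *Pecam1* (CD31) and *Cdh5* (VE-cadherin) encode adhesion proteins of the endothelial junction, *Plvap* encodes the protein of the diaphragms of fenestrated capillaries, which are plentiful in gut mucosa, and *Vwf* encodes the clotting glycoprotein stored by endothelium and platelets. *Prox1* encodes the transcription factor that sets lymphatic identity, *Lyve1* a hyaluronan receptor of lymphatic endothelium that some macrophages also carry, and *Pdpn* podoplanin, which lymphatic endothelium shares with fibroblasts and mesothelium. In the intestine, *Prox1* is also known from enteroendocrine cells, so its counts need not come from lymph vessels.

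The total count on genes lay between 81730206 and 197914821 in the APC Min/+ mice and between 50313805 and 117477400 in the WT mice, and 3 counts corresponded to between 0.0152 and 0.0596 CPM (counts scaled to library size). The labels call the tissue mucosa, but the smooth muscle gene *Myh11* was counted at 1423 to 2401 CPM, beside *Epcam* of the epithelium at 1239 to 1624 CPM, so the samples held muscle as well as epithelium. Mice M10_2 and M13_1, both APC Min/+, stood apart, since 5 genes of the distal colon (*Hoxa13*, *Hoxb13*, *Hoxd13*, *Hoxd12* and *Tgm3*) summed to 2759 and 2618 CPM in them and to between 1.97 and 7.66 CPM in the other 10 mice. Comparisons are therefore also given without this pair of mice. *Apc* itself was counted at 164 to 216 CPM in APC Min/+ and 154 to 239 CPM in WT mice, a count that does not separate the normal from the truncated allele. In bulk tissue, fewer endothelial cells and less RNA per endothelial cell cannot be told apart.

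The transcripts of these genes differ in base composition, and as described further on, genes with transcripts rich in G and C were among those that varied most between mice. In GENCODE M21 the longest transcript of *Plvap* holds 60.6% G and C, that of *Flt4* 56.6%, that of *Vwf* 56.5% and that of *Cdh5* 52.2%. The transcripts of *Pecam1* (50.2%), *Kdr* (49.4%), *Pdpn* (48.8%), *Tek* (47.1%), *Lyve1* (45.8%) and *Prox1* (45.3%) lie nearer to or below the median of 49.65% over all genes tested. To show what this difference looks like, the first 120 bases of the longest coding exon are given for 3 of the GC-rich genes and for *Pecam1* and *Lyve1*, on the coding strand of GRCm38, with G and C in capitals.
Plvap, chr8:71508188-71508307, reverse strand, exon 3: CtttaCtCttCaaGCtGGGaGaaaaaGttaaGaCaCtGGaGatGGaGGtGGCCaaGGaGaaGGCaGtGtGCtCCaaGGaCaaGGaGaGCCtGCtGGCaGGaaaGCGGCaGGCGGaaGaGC
Vwf, chr6:125642035-125642154, forward strand, exon 28: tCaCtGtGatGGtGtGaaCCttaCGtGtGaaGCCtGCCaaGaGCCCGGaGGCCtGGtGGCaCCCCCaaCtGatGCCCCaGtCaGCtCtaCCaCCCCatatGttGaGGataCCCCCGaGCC
Flt4, chr11:49633986-49634105, forward strand, exon 13: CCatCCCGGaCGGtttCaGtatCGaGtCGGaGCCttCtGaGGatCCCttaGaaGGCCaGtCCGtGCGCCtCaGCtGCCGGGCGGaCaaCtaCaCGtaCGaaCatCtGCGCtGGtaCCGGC
Pecam1, chr11:106697235-106697354, reverse strand, exon 5: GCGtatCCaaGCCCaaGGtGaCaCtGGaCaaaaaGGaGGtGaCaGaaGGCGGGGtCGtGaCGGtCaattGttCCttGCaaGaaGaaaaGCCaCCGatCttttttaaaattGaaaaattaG
Lyve1, chr7:110853874-110853993, reverse strand, exon 4: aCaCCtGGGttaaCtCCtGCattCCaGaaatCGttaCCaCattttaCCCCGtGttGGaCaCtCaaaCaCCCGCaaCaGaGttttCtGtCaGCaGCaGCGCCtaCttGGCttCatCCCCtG
The stretch of *Flt4* holds 61.67% G and C and that of *Vwf* 60%, against 45% in that of *Pecam1* and 50.83% in that of *Lyve1*. The stretch of *Plvap* holds 55.0%, which is below the 60.6% of its whole transcript. The stretches not printed hold 56.67% in *Cdh5*, 54.17% in *Tek*, 53.33% in *Kdr* and *Pdpn*, and 50.83% in *Prox1*. RefSeq windows from 250 bases before to 50 bases after a transcription start were at hand for *Kdr*, *Flt4*, *Tek*, *Pdpn* and *Prox1* (6 windows, with 2 for *Prox1*, build GRCm38.p6). The letters AGGAAG, a core of the sites bound by ETS transcription factors, were searched on both strands (CTTCCT on the other strand). They occurred in 0 of the 6 windows and in 35.4% of 32817 windows of the same length over all genes, which says only that these letters are not in these windows.

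Levels between genes were compared per gene length, as RPKM (counts scaled to library size and to the gene length in the tables) over all 12 mice. *Plvap* had the highest mean level, 15.5 ± 6.89 RPKM (SD, n = 12), followed by *Lyve1* at 13.02 ± 1.67 RPKM (SD, n = 12). *Plvap* exceeded *Lyve1* in 7 of 12 mice only, and their mean log2 ratio of 0.06 was far smaller than its SD of 0.90, so these neighbours did not differ beyond their spread. *Lyve1* exceeded *Pecam1*, at 7.32 ± 1.53 RPKM (SD, n = 12), in 12 of 12 mice. *Pecam1* exceeded *Pdpn*, at 6.20 ± 1.21 RPKM (SD, n = 12), in 11 of 12 mice, though the mean log2 ratio of 0.23 was no larger than its SD of 0.24. *Cdh5* stood at 4.20 ± 1.34 RPKM (SD, n = 12), below *Pdpn* in 11 of 12 mice and above *Kdr* in 10 of 12. *Kdr* at 3.43 ± 0.997 RPKM and *Tek* at 3.42 ± 0.646 RPKM (SD, n = 12) could not be ordered, each being the higher in 6 of 12 mice. *Tek* exceeded *Flt4*, at 1.75 ± 0.559 RPKM (SD, n = 12), in 12 of 12 mice. *Flt4*, *Vwf* at 1.501 ± 0.624 RPKM and *Prox1* at 1.496 ± 0.263 RPKM (SD, n = 12) formed the lowest group, with *Vwf* above *Prox1* in 6 of 12 mice.

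**Figure D1:**
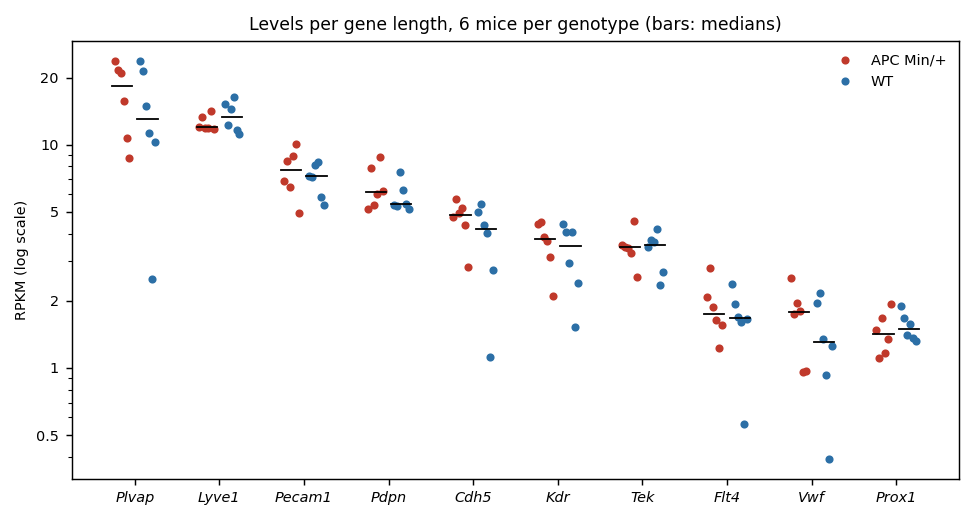
RPKM on a log scale for each of the 10 vessel genes, ordered by mean level, with 1 point per mouse (6 APC Min/+, 6 WT) and a bar at each group's median. *Plvap* and *Lyve1* lead at means of 15.5 and 13.02 RPKM, *Plvap* spreads over a 9.55-fold range and *Lyve1* over a 1.47-fold range, and the points of both genotypes overlap for every gene.

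The question of the design is whether the *Apc* mutation alters the colon at an age before polyps form, and the vessel genes address it for the vascular part of the tissue. No vessel gene passed the test of the genotypes, and the spread between mice was wide for several of them. Of the 10 genes, 0 met both thresholds, an FDR under 0.05 and a change of at least 2-fold, in edgeR's quasi-likelihood test, where 0% of the 20311 genes tested did. At an unadjusted p under 0.05 the count was also 0 of 10 in either direction, against 3.46% of all genes higher and 1.81% lower in APC Min/+ mice. DESeq2 called 0 of 10 as well, beside 0.133% of all genes, and so did edgeR's likelihood ratio test (0.0739% of all genes), its exact test (0.0492%), limma-voom (0%) and the fit without M10_2 and M13_1 (0%). The log2 fold changes (APC Min/+ over WT) ran from -0.11 for *Lyve1* to 0.31 for *Vwf*, 8 of 10 were above 0, and their median was 0.17, beside a median of -0.0077 and 48.4% above 0 over all genes tested. The genotypes' ranges overlapped for 10 of 10 genes, but the share of all genes with such overlap was not counted. Full separation of the groups corresponds to the smallest p of the exact permutation test, 0.00216, so overlap alone says little about vessel genes.

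Among the junction genes, *Pecam1* (ENSMUSG00000020717, chromosome 11, 106654217 to 106750628) ranged from 30.7 to 63.0 CPM with a median of 47.8 in APC Min/+ mice, and from 33.5 to 51.9 CPM with a median of 45.1 in WT mice. Its lowest and highest values both belonged to APC Min/+ mice, M20_1 and M2_A. The log2 fold change was 0.12 (SE 0.17, FDR = 0.915, edgeR's quasi-likelihood test), with a 95% confidence interval from 0.84-fold to 1.40-fold. *Cdh5* (ENSMUSG00000031871, chromosome 8, 104101625 to 104144511) ranged from 11.3 to 22.7 CPM (median 19.3) in APC Min/+ and from 4.45 to 21.6 CPM (median 16.7) in WT mice. The WT mouse M17_1, at 4.45 CPM, lay below all others, the next being M18_b at 10.9 CPM. The log2 fold change of *Cdh5* was 0.30 (SE 0.30, FDR = 0.910, edgeR) and 0.10 without M17_1.

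Of the growth factor receptors, *Kdr* (ENSMUSG00000062960, chromosome 5, 75932827 to 75978458) ranged from 15.3 to 32.7 CPM (median 27.6) in APC Min/+ and from 11.1 to 32.2 CPM (median 25.5) in WT mice, and differed by a log2 fold change of 0.16 (SE 0.25, FDR = 0.918, edgeR). *Flt4* (ENSMUSG00000020357, chromosome 11, 49609263 to 49652739) ranged from 10.15 to 23.2 CPM (median 14.4) in APC Min/+ and from 4.63 to 19.6 CPM (median 13.8) in WT mice. For *Flt4* the log2 fold change was 0.18 (SE 0.28, FDR = 0.918, edgeR). M17_1 was again the lowest mouse for both receptors, and M10_2 the highest. Leaving out M17_1 moved the log2 fold change of *Flt4* to 0.0042 and that of *Kdr* to 0.018. *Tek* (ENSMUSG00000006386, chromosome 4, 94739289 to 94874976) varied less, from 12 to 21.5 CPM (median 16.4) in APC Min/+ and from 11.1 to 19.8 CPM (median 16.8) in WT mice. For *Tek* the log2 fold change was 0.05 (SE 0.16, FDR = 0.956, edgeR).

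*Plvap* (ENSMUSG00000034845, chromosome 8, 71497765 to 71511752) had the widest spread of the 10 genes. It ranged from 17.5 to 47.8 CPM (median 37.0) in APC Min/+ and from 5.02 to 47.9 CPM (median 26.4) in WT mice, so the lowest and the highest mouse were both WT, M17_1 and M17_2. The log2 fold change of *Plvap* was 0.27 (SE 0.42, FDR = 0.919, edgeR), with an interval from 0.64-fold to 2.26-fold. *Vwf* (ENSMUSG00000001930, chromosome 6, 125546774 to 125686679) ranged from 15.4 to 40.6 CPM (median 28.5) in APC Min/+ and from 6.29 to 34.8 CPM (median 20.9) in WT mice. For *Vwf* the log2 fold change was 0.31 (SE 0.36, FDR = 0.911, edgeR), with an interval from 0.73-fold to 2.11-fold. It fell to 0.117 without M17_1 and rose to 0.501 without M19_1, the lowest and the highest of the fits that left out 1 mouse. For these 2 genes the intervals reach beyond 2-fold, so a difference of that size could not be resolved with this spread between mice.

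The coefficient of variation over 12 mice was 12.8% for *Lyve1*, 17.6% for *Prox1* and 19.5% for *Pdpn*, against 44.6% for *Plvap*. *Lyve1* (ENSMUSG00000030787, chromosome 7, 110850607 to 110863239) ranged from 30.7 to 36.8 CPM (median 31.2) in APC Min/+ and from 29.2 to 42.8 CPM (median 34.8) in WT mice, the narrowest relative spread of the 10 genes. For *Lyve1* the log2 fold change was -0.11 (SE 0.11, FDR = 0.910, edgeR), with an interval from 0.79-fold to 1.09-fold. *Prox1* (ENSMUSG00000010175, chromosome 1, 190118035 to 190170714) ranged from 9.22 to 16.11 CPM (median 11.8) in APC Min/+ and from 11.1 to 15.7 CPM (median 12.4) in WT mice. M10_2 and M13_1 held the lowest values of *Prox1*, 9.22 and 9.69 CPM, and the log2 fold change of -0.09 (SE 0.15, FDR = 0.924, edgeR) turned to 0.06 without them. Exons of *Prox1* share 133 bases, 1.59% of its exon length, with the antisense gene *Prox1os*, and counting by strand was not stated. *Pdpn* (ENSMUSG00000028583, chromosome 4, 143267431 to 143299564) ranged from 9.32 to 16 CPM (median 11.1) in APC Min/+ and from 9.41 to 13.7 CPM (median 9.81) in WT mice. For *Pdpn* the log2 fold change was 0.17 (SE 0.15, FDR = 0.910, edgeR).

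**Figure D2:**
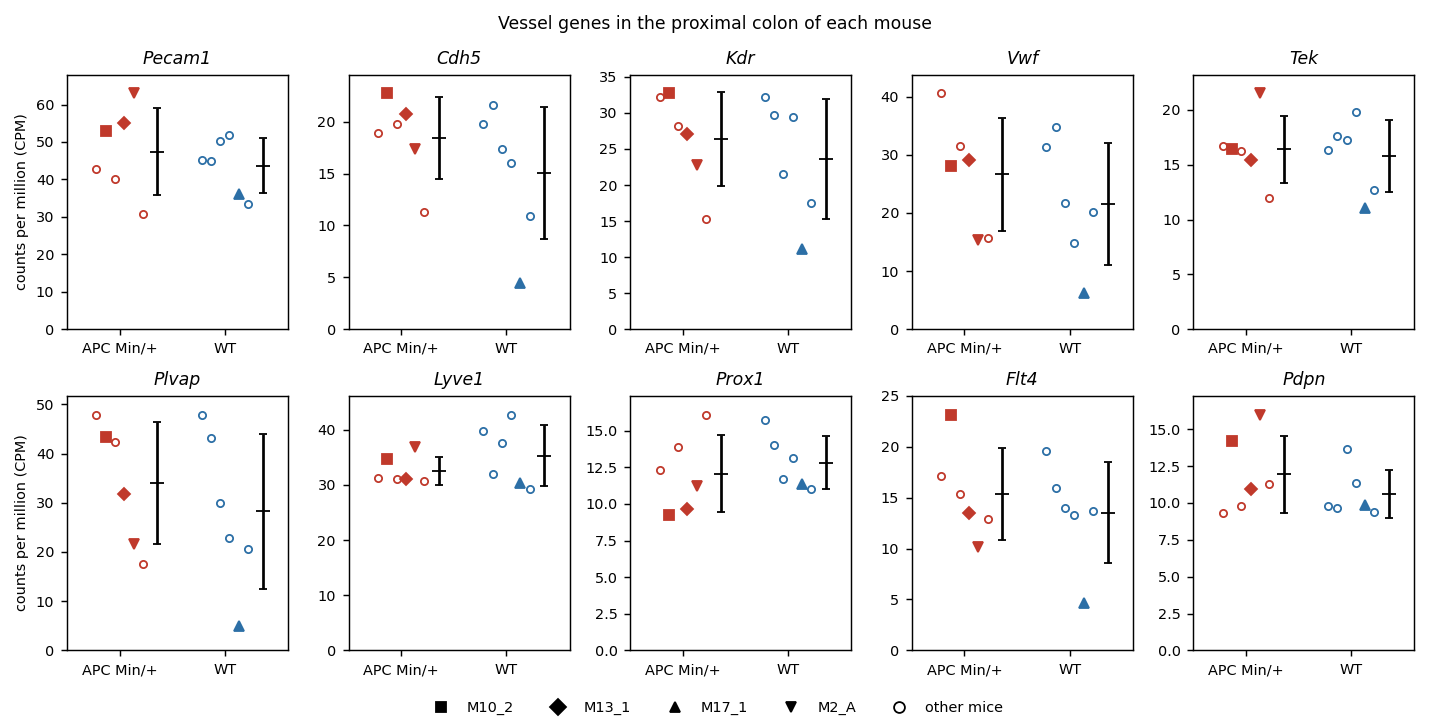
CPM of each of the 10 vessel genes (vertical axes from 0) in 6 APC Min/+ and 6 WT mice, with 1 point per mouse, the mean and SD as a bar beside each group, and filled symbols for M10_2, M13_1, M17_1 and M2_A. The groups overlap in all 10 panels, and M17_1 is the lowest mouse for 6 genes, at 5.02 CPM for *Plvap* and 4.45 CPM for *Cdh5*.

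**Figure D3:**
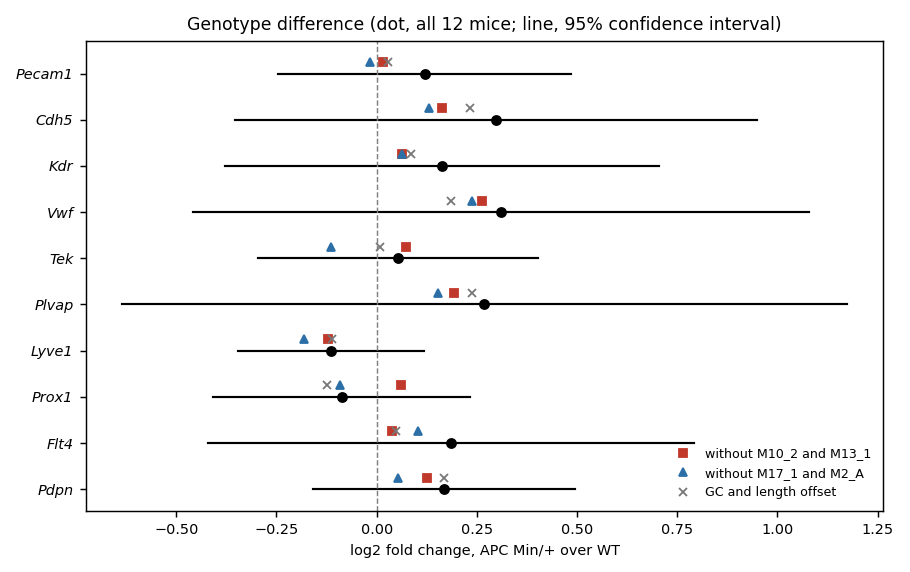
Log2 fold change (APC Min/+ over WT) of the 10 vessel genes from edgeR's quasi-likelihood fit, as a dot with its 95% confidence interval, beside the values without M10_2 and M13_1, without M17_1 and M2_A, and with an offset for GC content and length. All 10 intervals include 0, and the values move towards or across 0 for several genes when mice are left out.

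For each of the 10 genes, the SD of the log2 level over 12 mice, 0.18 for *Lyve1* to 0.89 for *Plvap*, was larger than the log2 fold change between genotypes, and the same mice were extreme for many of these genes. M17_1 was the lowest of the 12 mice for 6 of 10 genes (*Cdh5*, *Kdr*, *Vwf*, *Tek*, *Plvap* and *Flt4*), while its *Pecam1* at 36.2 CPM, *Lyve1* at 30.4 CPM and *Pdpn* at 9.84 CPM lay within the range of the others. M2_A was the highest for *Pecam1*, *Tek* and *Pdpn*, and M10_2 for *Cdh5*, *Kdr* and *Flt4*. The level of *Plvap* was 0.139 times that of *Pecam1* in M17_1 and 1.12 times in M8_2, on the CPM scale. For *Lyve1* the same ratio to *Pecam1* ran from 0.563 in M13_1 to 0.998 in M20_1.

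Each library also had its own dependence on base composition, which was measured as the slope of the log2 deviation from the gene's mean over mice on transcript GC content, over 12241 genes. Per 10 points of GC, the slope was -0.39 in M17_1, -0.19 in M2_A and -0.19 in M18_2a, and reached 0.18 in M8_2 and 0.19 in M10_2. The slope on gene length, in log2 per doubling, ran from -0.14 in M2_A and -0.12 in M17_1 to 0.09 in M10_2 and M13_1. These slopes had no clean split by genotype, with GC slopes of -0.19 to 0.19 in APC Min/+ and -0.39 to 0.16 in WT mice.

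Levels of 5 vessel genes moved with the GC slope over the 12 mice. For *Flt4*, Pearson's r of log2(CPM + 0.5) with the slope was 0.911 (permutation p = 2e-05, adjusted p = 0.0004) and Spearman's rho 0.937 (permutation p = 3e-05, adjusted p = 0.0006). For *Vwf*, r was 0.908 (permutation p = 0.00016, adjusted p = 0.0016) and rho 0.783 (permutation p = 0.0037, adjusted p = 0.0205), and for *Plvap*, r was 0.874 (permutation p = 0.00046, adjusted p = 0.00307) and rho 0.797 (permutation p = 0.00297, adjusted p = 0.0205). Adjustment was over 20 relations, those of 10 genes with the GC and the length slope. Without M17_1 and M2_A, the mice farthest from the median slope, r was 0.776 for *Flt4*, 0.770 for *Vwf* and 0.716 for *Plvap*. *Cdh5* (r = 0.710, permutation p = 0.0141, adjusted p = 0.0314, rho = 0.622, permutation p = 0.0349, adjusted p = 0.0699) and *Kdr* (r = 0.668, permutation p = 0.0179, adjusted p = 0.0359, rho = 0.741, permutation p = 0.00782, adjusted p = 0.0223) fell to r of 0.387 and 0.345 without those 2 mice, so their relation to the GC slope rests on them. With the length slope, *Kdr* kept r = 0.769 and *Cdh5* r = 0.747 without the same mice, from 0.751 (permutation p = 0.00468, adjusted p = 0.0134) and 0.657 (permutation p = 0.0107, adjusted p = 0.0267). *Flt4* (r = 0.730, permutation p = 0.00173, adjusted p = 0.00865), *Vwf* (r = 0.752, permutation p = 0.00332, adjusted p = 0.0125) and *Plvap* (r = 0.723, permutation p = 0.00374, adjusted p = 0.0125) also passed with the length slope. Without the same mice their r was 0.564, 0.611 and 0.655. All 5 genes thus passed with both slopes, and GC content and length were not tested apart. Within genotypes the r of *Flt4* with the GC slope was 0.928 in APC Min/+ and 0.902 in WT mice, that of *Vwf* 0.761 and 0.968, and that of *Plvap* 0.788 and 0.905.

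*Pecam1* (r = -0.051, permutation p = 0.876, adjusted p = 0.947), *Lyve1* (r = -0.102, permutation p = 0.754, adjusted p = 0.887), *Tek* (r = 0.168, permutation p = 0.602, adjusted p = 0.851), *Prox1* (r = 0.148, permutation p = 0.649, adjusted p = 0.851) and *Pdpn* (r = -0.207, permutation p = 0.525, adjusted p = 0.851) showed no relation to the GC slope that passed the test. The coding stretches of *Flt4* and *Vwf* printed above are those of genes in the first set, and those of *Pecam1* and *Lyve1* of genes in the second. The stretches do not sort the sets, since those of *Tek* and *Pdpn* in the second hold 54.17% and 53.33%, near the 55.0% of *Plvap*. *Kdr*, at 49.4% G and C, sits near the median of all genes but belongs to the first set, where its r with the GC slope rests on M17_1 and M2_A. An offset for GC content and length was chosen after seeing the data. It lowered the SD of log2 level over 12 mice from 0.55 to 0.30 for *Flt4*, from 0.72 to 0.45 for *Vwf* and from 0.89 to 0.68 for *Plvap*. *Pecam1* stayed at 0.30 from 0.31, and *Prox1* rose from 0.24 to 0.27. The offset was fitted on CPM without the scaling factors (TMM) of the libraries and applied to values scaled by them. It therefore also carries a shift of each whole library, which the TMM factors correct as well. In M18_b, with a TMM factor of 0.906 and a GC slope of 0.07, it ran from -0.20 for *Prox1* to -0.04 for *Plvap*. Values after the offset are thus not corrected for GC content and length alone. With that offset 0 of 10 genes passed the genotype test, beside 0 of all 20021 genes tested with it. The log2 fold changes of the 10 genes ran from -0.12 for *Prox1* to 0.24 for *Plvap*. The part of base composition in the differences between mice was not tested.

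**Figure D4:**
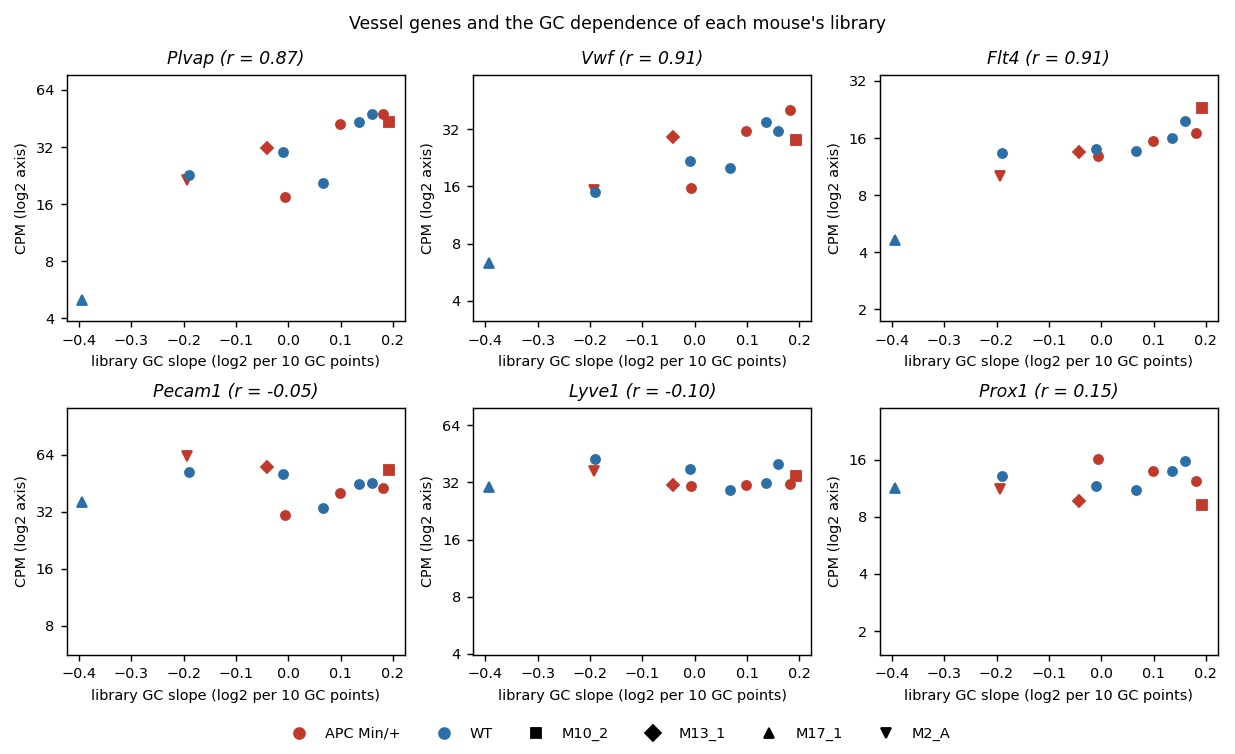
CPM (log2 axis) of *Plvap*, *Vwf*, *Flt4*, *Pecam1*, *Lyve1* and *Prox1* against the GC slope of each mouse's library (log2 per 10 points of GC), with 1 point per mouse coloured by genotype. The 3 GC-rich genes in the upper row rise with the slope (r of 0.874, 0.908 and 0.911), while *Pecam1*, *Lyve1* and *Prox1* in the lower row have r of -0.051, -0.102 and 0.148.

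The 10 genes fell into sets that varied together. Of their 45 pairs, 14 had a Pearson r with an adjusted permutation p under 0.05, all positive, and 9 of those also passed by Spearman's rho. All 10 pairs among *Cdh5*, *Kdr*, *Vwf*, *Plvap* and *Flt4* were among the 14. These are the same 5 genes whose levels moved with the GC slope and with the length slope. The closest pair was *Vwf* and *Plvap*, with r = 0.963 (permutation p = 2e-05, adjusted p = 0.0009) and rho = 0.839 (permutation p = 0.00128, adjusted p = 0.0136), followed by *Cdh5* and *Plvap* with r = 0.947 (permutation p = 7e-05, adjusted p = 0.00105) and rho = 0.825 (permutation p = 0.00151, adjusted p = 0.0136). Without the 2 mice farthest from the median, *Vwf* and *Plvap* kept r = 0.929 and *Cdh5* and *Plvap* kept r = 0.819. Within genotypes, r of *Vwf* and *Plvap* was 0.942 in APC Min/+ and 0.973 in WT mice, and over the 14 pairs r ran from 0.489 to 0.942 and from 0.787 to 0.978. All these values come from the same 12 libraries and share their depth and composition.

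The other 4 of the 14 pairs joined *Tek* to *Pecam1* (r = 0.838, permutation p = 0.00072, adjusted p = 0.0054, rho = 0.664, permutation p = 0.0221, adjusted p = 0.0828), *Cdh5* (r = 0.740, permutation p = 0.0033, adjusted p = 0.0135), *Kdr* (r = 0.741, permutation p = 0.00589, adjusted p = 0.0204) and *Lyve1* (r = 0.684, permutation p = 0.0146, adjusted p = 0.0468, rho = 0.797, permutation p = 0.00279, adjusted p = 0.0173). The rho of *Tek* was 0.357 with *Cdh5* and 0.490 with *Kdr*, and neither passed. *Pecam1* and *Tek* kept r = 0.716 without M20_1 and M2_A. *Tek* fell to r = 0.408 with *Cdh5* and 0.314 with *Kdr* when the 2 farthest mice were left out, and *Cdh5* with *Flt4* and *Kdr* with *Vwf* fell to 0.555 and 0.556, so these 4 relations rest on those mice. The other 10 of the 14 pairs kept a permutation p under 0.05 in the remaining 10 mice. Without M17_1 and M2_A, a choice made after seeing the data, and likewise after the GC and length offset, 4 of 45 pairs passed, the same 4 in both cases. With the offset these were *Plvap* with *Cdh5* (r = 0.937), *Kdr* (r = 0.906) and *Vwf* (r = 0.849), and *Cdh5* with *Kdr* (r = 0.894). None of these 4 reached an adjusted p under 0.05 by Spearman's rho after the offset, the rho of *Cdh5* and *Kdr* being 0.392. *Prox1* paired with no other gene, its r with *Pecam1* being -0.455 (permutation p = 0.138, adjusted p = 0.282). Among the lymphatic genes, r was 0.146 for *Lyve1* and *Prox1* and 0.238 for *Lyve1* and *Flt4*, and neither passed. After the offset *Lyve1* and *Flt4* had r = 0.644 (permutation p = 0.0188, adjusted p = 0.0777) and rho = 0.867 (permutation p = 0.00047, adjusted p = 0.0211), and of the 45 pairs this 1 passed by rho.

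**Figure D5:**
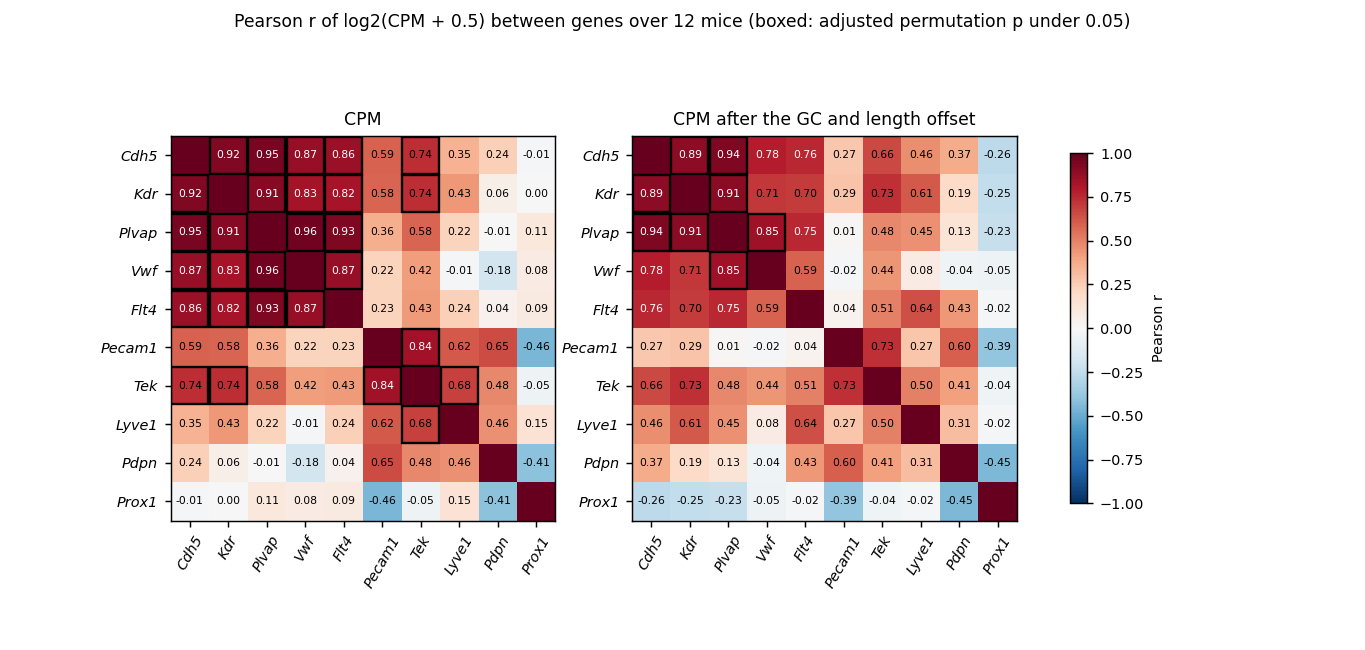
Pearson r of log2(CPM + 0.5) for all pairs of the 10 vessel genes over 12 mice, as measured (left) and after the GC and length offset (right), with boxes around pairs whose adjusted permutation p is under 0.05. The block of *Cdh5*, *Kdr*, *Plvap*, *Vwf* and *Flt4* at the upper left holds 10 of the 14 boxed pairs, and 4 pairs are boxed after the offset.

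Markers of other cells in the tissue were set beside the vessel genes as summed CPM. Over 110 relations of the 10 genes with 11 lists, 0 passed the adjusted permutation p by Pearson's r and 2 by Spearman's rho. *Pecam1*, which platelets and some leukocytes also express, had r = 0.476 with the macrophage list (permutation p = 0.119, adjusted p = 0.484, rho = 0.517, permutation p = 0.0902, adjusted p = 0.432), and r was 0.892 without M10_2 and M13_1 and 0.238 without M17_1 and M2_A. By rho, *Cdh5* fell as the epithelial list rose (rho = -0.860, permutation p = 0.00071, adjusted p = 0.039, r = -0.693, permutation p = 0.0113, adjusted p = 0.206) and *Tek* rose with the macrophage list (rho = 0.860, permutation p = 0.00069, adjusted p = 0.039, r = 0.660, permutation p = 0.0198, adjusted p = 0.217). The r of *Lyve1* with the macrophage list, which holds *Cd163*, *Mrc1* and *Timd4*, was 0.678 (permutation p = 0.015, adjusted p = 0.206, rho = 0.720, permutation p = 0.0105, adjusted p = 0.193).

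The macrophage list summed to 66.6 to 190 CPM in APC Min/+ and 94.6 to 166 CPM in WT mice. The epithelial list summed to 9854 to 16960 and 13060 to 18270 CPM, the smooth muscle list to 4391 to 6959 and 4635 to 5841 CPM, and the fibroblast list to 1881 to 2834 and 1101 to 2189 CPM, in that order of genotypes. At an unadjusted p under 0.05 in edgeR's test, 3 of 6 smooth muscle genes and 1 of 6 fibroblast genes were higher and 1 of 4 platelet genes lower in APC Min/+ mice. Over all genes, 3.46% were higher and 1.81% lower. The 5 distal colon genes were also higher (5 of 5), but the authors had listed all 5 as higher from these same samples. That count was therefore known in advance. Their sum was high in M10_2 and M13_1 only, with 1.97 to 7.66 CPM in the other 10 mice. The red cell list summed to 25.6 to 135 and 33.5 to 259 CPM, the mesothelial list to 4.50 to 31.7 and 7.45 to 26.98 CPM, and the platelet list to 5.81 to 17.6 and 9.39 to 16.9 CPM. M2_A, the highest mouse for *Pecam1*, *Tek* and *Pdpn*, was also the highest for the adipocyte (543 CPM, with 9.91 to 294 CPM in the other mice), macrophage, mesothelial, platelet and smooth muscle lists. Of the platelet list, which bears on *Vwf* and *Pecam1*, 3 of 5 genes averaged above 1 CPM and *Gp9* stayed at or below 0.0630 CPM in every mouse. The fibroblast list was lowest in M17_1 (1101 CPM, with up to 2834 CPM in M10_2), the mouse in which 6 vessel genes were lowest. The genes of that list did not move together in M17_1. The collagen genes *Col1a1*, *Col1a2* and *Col3a1* were at their lowest there, *Col3a1* at 258.9 CPM. *Dcn* of the same list was at 561 CPM in M17_1, within its WT range of 436.8 to 623.9 CPM. M17_1 was also the lowest mouse for genes outside vessels and fibroblasts, with the epithelial *Cdh1* at 296.7, *Myh11* at 1423 and *Apc* at 153.5 CPM. The epithelial *Epcam*, at 1364 CPM in M17_1, lay within the range of the other mice. The pericyte list was lowest in M13_1 (291 CPM) and M10_2 (362 CPM), against 596 to 835 CPM in the other 10 mice, and these are the mice in which *Prox1* was lowest. The part of these other cells in the vessel gene values was not tested.

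The genes whose pattern over the 12 mice was most like that of *Pecam1* were *Myct1* (r = 0.946), *Ntf3* (0.919), *Adgrl4* (0.914), *Rassf5* (0.913) and *Arhgap28* (0.905), of which *Myct1* and *Adgrl4* are known as endothelial genes. *Tek* ranked 24th by this measure among all genes tested, *Pdpn* 346th, *Cdh5* 628th and *Prox1* 19473rd. The genes most like *Lyve1* were *Rbm42* (r = 0.855), *Gm15773* (0.839), *A930016O22Rik* (0.839), *Tmem95* (0.820) and *Ggta1* (0.810), and the first 4 of these stayed under 0.30 CPM in every mouse. These are descriptions of 12 mice with no test.

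Around the 10 genes, 7 lists of other vessel genes were followed in the same fit, with 75 genes tested in all. Of these, 0 met both thresholds in edgeR's quasi-likelihood test (0% of all genes did). DESeq2 and the likelihood ratio and exact tests also called 0 of 75, beside 27, 15 and 10 of all 20311 genes, and limma-voom called 0 of either. At an unadjusted p under 0.05, 2 were higher and 1 lower in APC Min/+ mice, that is 2 of 75 beside 3.46% of all genes and 1 of 75 beside 1.81%. Without M10_2 and M13_1 the counts were 1 and 0, beside 0.531% of all genes higher and 1.06% lower. The log2 fold change was above 0 for 55 of 75 genes (73.3%), with a median of 0.14, beside 48.4% and a median of -0.0077 over all genes tested. These genes do not vary independently. Pearson's r with the GC slope of the libraries, lowest in the WT mouse M17_1, was 0.938 for *Ephb4* and 0.905 for *Efnb2*, and -0.922 for *Bmx*. The part of the GC slope in these fold changes was not tested.

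Of the ligands and coreceptors of the VEGF system, 0 of 9 had an unadjusted p under 0.05 (all genes: 3.46% higher, 1.81% lower). *Vegfa*, the ligand of *Kdr*, was at 87.4 ± 8.80 CPM in APC Min/+ and 98.5 ± 11.8 CPM in WT mice (SD, n = 6 each), and its log2 fold change was -0.17 (SE 0.10, FDR = 0.908, edgeR). *Vegfc*, a ligand of *Flt4*, was at 5.92 ± 1.85 and 4.20 ± 1.16 CPM (SD, n = 6 each), with a log2 fold change of 0.49 (SE 0.24, FDR = 0.908, edgeR), and was highest in M13_1 at 8.72 and M10_2 at 7.71 CPM. The other APC Min/+ mice had 4.02 to 5.22 CPM of *Vegfc*, within the WT range of 2.27 to 5.67 CPM. *Vegfd*, the other ligand of *Flt4*, had a log2 fold change of -0.35 (SE 0.20, FDR = 0.908, edgeR), and the coreceptor gene *Nrp2* 0.34 (SE 0.24, FDR = 0.908, edgeR).

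Of 10 further lymphatic genes, 1 was higher and 1 lower in APC Min/+ mice at an unadjusted p under 0.05. Over all genes these shares were 3.46% and 1.81%. *Foxc2*, a transcription factor of lymphatic valves, was at 0.270 ± 0.0662 CPM in APC Min/+ and 0.161 ± 0.0495 CPM in WT mice (SD, n = 6 each), a log2 fold change of 0.75 (SE 0.28, unadjusted p = 0.0182, FDR = 0.908, edgeR). *Mmrn1*, a multimerin of lymphatic endothelium and platelets, was at 48.7 ± 6.09 and 62.0 ± 12.3 CPM (SD, n = 6 each), a log2 fold change of -0.35 (SE 0.14, unadjusted p = 0.0236, FDR = 0.908, edgeR). The ranges of both genes overlapped between genotypes, *Mmrn1* lying between 39.6 and 57.3 CPM in APC Min/+ and between 46.2 and 78.8 CPM in WT mice. *Ccl21a*, the chemokine by which lymph vessels attract dendritic cells, had the highest mean level of this list at 47.9 RPKM and a log2 fold change of -0.03 (SE 0.13, FDR = 0.972, edgeR). *Ccl21a* has near-identical copies in the mouse genome, so its counts are uncertain. *Nr2f2*, which encodes the venous and lymphatic factor COUP-TFII, had 0.33 (SE 0.16, FDR = 0.908, edgeR), and its 2 highest mice were M13_1 at 29.7 and M10_2 at 26.8 CPM.

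Of 8 angiopoietin and Tie genes, 1 was higher and 0 lower at an unadjusted p under 0.05 (3.46% and 1.81% of all genes). This was *Svep1*, a matrix protein with a known part in lymph vessel remodelling, at 52.7 ± 20.3 CPM in APC Min/+ and 34.3 ± 10.3 CPM in WT mice (SD, n = 6 each), a log2 fold change of 0.62 (SE 0.27, unadjusted p = 0.0357, FDR = 0.908, edgeR). The highest values of *Svep1* were those of M10_2 (79.4 CPM) and M13_1 (75.02 CPM), while the other APC Min/+ mice had 27.6 to 49.2 CPM and the WT mice 20.02 to 46.4 CPM. *Angptl2* (0.21, SE 0.13, FDR = 0.908, edgeR), *Angpt4* (0.30, SE 0.29, FDR = 0.910, edgeR) and *Ptprb*, the phosphatase that restrains Tie2 (0.07, SE 0.27, FDR = 0.966, edgeR), had smaller log2 fold changes.

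In the pan-endothelial list 0 of 21 genes had an unadjusted p under 0.05, beside 3.46% of all genes higher and 1.81% lower. *Cd34* led it by level at 26.4 RPKM, with 70.7 ± 12.4 CPM in APC Min/+ and 67.5 ± 9.54 CPM in WT mice (SD, n = 6 each), and *Ecscr* followed at 5.601 RPKM. *Clec14a*, *Esam* and *Robo4* had log2 fold changes of 0.18 (SE 0.15), 0.21 (SE 0.20) and 0.20 (SE 0.20). None of the 12 arterial, tip cell and Notch genes passed an unadjusted p of 0.05 either. Of these, *Notch4* had a log2 fold change of 0.76 (SE 0.37, FDR = 0.908, edgeR), with 14.4 CPM in M10_2, 11.8 CPM in M13_1 and 3.005 to 5.89 CPM in the other APC Min/+ mice, beside 3.24 to 5.96 CPM in WT mice. *Efnb2*, an arterial marker also made by other cells, was the most abundant of this list at 22.4 RPKM, and *Dll4*, the Notch ligand of tip cells, stood at 3.38 RPKM. *Apln* had 0.52 (SE 0.36) and *Bmx* -0.24 (SE 0.18).

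Of the venous and leukocyte adhesion genes 0 of 8 tested had an unadjusted p under 0.05 (all genes: 3.46% higher, 1.81% lower). *Sele* and *Glycam1* were the listed genes that did not pass the filter on low counts. *Ephb4*, a venous receptor also known from colon epithelium, was at 14.96 RPKM with a log2 fold change of 0.30 (SE 0.28), *Chst4* at 20.2 RPKM with 0.11 (SE 0.18), *Ackr1*, the venular chemokine receptor, had 0.34 (SE 0.17), and *Selp*, which encodes P-selectin, had 0.61 (SE 0.31). Of the 9 capillary and permeability genes 0 passed likewise. *Car4* was the most abundant at 219 RPKM and is also made by colon epithelium. It reached 953 CPM in M13_1 and 924 CPM in M10_2, against 257 to 352 CPM in the other APC Min/+ and 241 to 582 CPM in WT mice. *Fabp4*, made by adipocytes as well as capillaries, followed at 138 RPKM, and ranged from 16.6 CPM in M10_2 to 283 CPM. *Aplnr* had a log2 fold change of 0.47 (SE 0.27) and *Ehd4* of 0.24 (SE 0.18).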

How the data were processed

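Proximal colon RNA of 6 APC Min/+ and 6 WT mice was sequenced at 100 bp in paired ends. The authors aligned reads to GRCm38 (GRCm38.p2) with STAR 2.3.0, counted them on genes with featureCounts (version not given in the sources used here) and deposited 1 table of raw counts per mouse, with gene lengths and no normalization. Symbols, GC content and coordinates came from GENCODE M21. The 20311 genes that reached 10 counts in 3 or more mice were tested with edgeR 4.0.16 (quasi-likelihood, TMM, Benjamini-Hochberg FDR under 0.05, at least 2-fold). SE was computed from the fold change and F statistic. CPM were scaled by TMM factors, and RPKM divided them by the length in the tables. The GC and length offset was fitted on CPM without TMM factors and applied on top of them. Correlations used log2(CPM + 0.5) and 100000 resamples, two-sided, with Benjamini-Hochberg adjustment over 45, 110 or 20 relations. The fit was tested on simulated data with the same spread for every gene and no GC dependence in the calls. That test does not cover genes that spread more widely, such as *Plvap*. Intervals and floors cover the spread or counting error only.

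The 10 genes, the lists and the tests were chosen with earlier results of these data known. The rule for names was: the 10 genes, of each vessel list the 3 with the lowest p and the 2 with the highest RPKM, and the 5 genes most like *Pecam1* and *Lyve1*. Genes named for a marker list came from 11 marker lists. Alternatives were other scalings, filters and tests (DESeq2 1.42.0, limma-voom 3.58.1), leaving out mice, the suffix of the mouse name as a covariate, pseudocount 0.1, and, chosen after seeing the data, the GC and length offset and leaving out M17_1 and M2_A. The labels do not give the shipment or a sequencing batch, and no 2 libraries agreed within sampling noise. The relations to marker lists include those of *Pecam1* and the other vessel genes with 1 list whose values are not reported here, the list behind the call with total counts.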

Additional observations from a re-analysis of the deposited data

How the results depend on the processing

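Under every alternative run, 0 of the 10 vessel genes and 0 of the related vessel genes tested (75, or 77 with no filter on low counts and 73 with the filter of 1 CPM) were called, and exact permutation tests of the 10 vessel genes over mice gave p between 0.290 and 0.736. Among all genes, DESeq2 called 27 of 20311, the likelihood ratio test 15 and the exact test 10, and every other alternative fit called 0. A count of 0 for the vessel genes therefore says little about them. The log2 fold change of *Prox1* turned to 0.061 without M10_2 and M13_1, and without M17_1 and M2_A those of *Pecam1* and *Tek* turned to -0.018 and -0.113. Over the 12 fits that left out 1 mouse each, the log2 fold change of *Tek* ran from -0.032 to 0.131, that of *Plvap* from 0.046 to 0.484 and that of *Flt4* from 0.0042 to 0.320. Pairs of vessel genes past the adjusted permutation p fell from 14 to 4 without M17_1 and M2_A, and to 4 with the GC and length offset. Relations to the cell type lists rose from 0 to 1 with total counts and to 1 without M10_2 and M13_1 (*Pecam1* with macrophages, r = 0.892, permutation p = 0.00021, adjusted p = 0.0231). The cause of these shifts was not tested. No paired analysis was made, because the genotypes are different mice and the labels pair none of them. The labels give no replicate numbers, and those used here follow the order of the samples and pair no mice. Each mouse gave 1 library, so differences between mice and between libraries cannot be told apart, and this spread limits what could be detected.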
